A study of Mus musculus with 7 samples.

Results

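Regulatory T cells (Tregs) that carried Foxp3 transcript were described here in subcutaneous malignant peripheral nerve sheath tumors (MPNSTs) with and without fractionated radiation therapy (RT). A cell was taken as a Treg when it had at least 1 unique molecular identifier (UMI, 1 counted transcript molecule) of Foxp3, at least 1 over Cd3e, Cd3d and Cd3g, and none of Cd8a or Cd8b1. At most 1 UMI over the macrophage genes Csf1r, Adgre1 and Mrc1 and at most 1 over the tumor genes Tafa1, Unc5c and Col11a1 was allowed. These criteria were met by 195 of 33136 cells that had at least 500 detected genes and at most 10% mitochondrial UMIs, and 39537 cells were deposited in all. Members were thus selected on their UMI counts of Foxp3, the Cd3 and Cd8 genes and the excluded macrophage and tumor genes, so the levels of these genes are given as description and were not tested.

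The tumors were grown from JW23.3, a single murine MPNST line deficient in Nf1, which was implanted in the flanks of female C57/B6 wildtype mice aged 5 to 6 weeks. From day 7, mice were randomized to no treatment (control, 3 tumors) or to 5 daily fractions of 2 Gy with the body outside the tumor shielded (irradiated, 4 tumors). Tumors were taken at day 21, dissociated with papain for 45 minutes, and 10000 cells per tumor were loaded for droplet-based 3′ single-cell RNA-Seq. Every mouse had intact T cells, and 1 line in 1 strain limits the model.

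Foxp3 is the transcription factor that maintains the identity of Tregs, a CD4+ lineage that restrains other T cells. Tregs take up IL-2 through the high-affinity receptor chain Il2ra (CD25), remove costimulatory ligands from antigen-presenting cells through Ctla4, and activate latent TGF-β through integrins. In tumors, Tregs often carry high levels of activation receptors such as Tnfrsf9 (4-1BB), Tnfrsf4 (OX40), Tnfrsf18 (GITR) and the chemokine receptor Ccr8, and they can respond to the interferons that radiation induces.

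The Tregs numbered 17, 33, 32 and 39 in irradiated tumors 1 to 4 and 30, 28 and 16 in control tumors 1 to 3. The same gate held 1234 T cells, of which 260 were conventional CD4 T cells (a Cd4 UMI, no Foxp3) and 303 were CD8 T cells (a Cd8a or Cd8b1 UMI, no Foxp3). The median Treg held 4098 UMIs, and medians per tumor ran from 2192 to 6737. A single Foxp3 UMI defined 114 of the members (58.5%), which had a median of 3200.5 UMIs, whereas the 81 members with 2 or more had a median of 5494. A further 260 cells with a Cd4 UMI and 465 without one missed the definition only by a Foxp3 count of 0. The Cd8 criterion alone left out 11 cells and the Cd3 criterion alone left out 24. Among members, 15 had exactly 1 Cd3 UMI, 12 had 1 UMI of the macrophage genes and 18 had 1 UMI of the tumor genes. With 2 UMIs, 0 cells were left out by the macrophage genes alone and 2 by the tumor genes alone. The Foxp3 transcript is sparse in these libraries: at 1500 UMIs per cell it would still be seen in 52.2% of the members. A Cd4 UMI was found in 95 members and was not required. Away from T cells, a Foxp3 UMI was found in 4 of 7946 macrophages (0.0503%) and in 51 of 12969 tumor cells (0.393%).

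Libraries differed in yield and depth. They held between 2310 and 6900 cells after filtering, with median depths of 7374.5 to 21017 UMIs. The labels name no batch. Over all splits, the one with the least spread in cell number, depth and mitochondrial share was taken (within-set share 0.418, next split 0.527). It gave a first technical set (irradiated tumor 1, control tumors 2 and 3) and a second (irradiated tumors 2 to 4, control tumor 1). Each set held both groups but was dominated by one of them. In cell number (5059) and mitochondrial share (3.88%), control tumor 1 was nearer the first set. What sets them apart, RT included, was not tested. Technical set is thus only a name for this split, and a term for it can take up part of an RT difference. Differences within each set are given beside the shares below. Across the 7 libraries 190 barcodes were shared between pairs, 3 to 19 per pair, and 0 barcodes belonged to members of both libraries of a pair.

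Markers that the definition did not use went with the Treg label. Ikzf2 (Helios), a transcription factor that stabilizes Tregs, was detected in 192 of 195 members, Ctla4 in 175, Tnfrsf9 in 169 and Il2ra in 138. Both Il2ra and Ctla4 were seen in 126 members (64.6%), Ctla4 without Il2ra in 49 and Il2ra without Ctla4 in 12. The 8 members that lacked both all had an Ikzf2 UMI. Among markers of other cells, 7 of 8 NK cell genes (Ncr1, Klrb1c and Eomes among them) and 3 of 6 B cell genes had no UMI in any Treg. The B cell genes summed to at most 21.7 CPM and the NK cell genes to at most 10.7 CPM in any tumor. Of 10 dendritic cell genes 5 were detected, summing to 172 to 351 CPM in irradiated and 244 to 387 CPM in control tumors. All 14 macrophage markers were detected, summing to 321 to 1082 CPM (the usual depth-scaled unit, computed from the UMIs summed over a class) in irradiated and 528 to 796 CPM in control tumors. Of 12 tumor markers 11 were detected, at 73.6 to 517 CPM and 193 to 543 CPM in the same order. The part of these transcripts in any result was not tested.

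The members were mostly activated cells of mixed states. Ccr8, which marks tumor-resident effector Tregs, was detected in 47 members, all of which had Tnfrsf9, 45 Ctla4 and 35 Il2ra. Klrg1, a receptor of terminally differentiated cells, was detected in 77 members, and Itgae (CD103), which anchors T cells to epithelial cadherin, in 66. The cycling genes Mki67 or Top2a were seen in 65 members, 63 of which also had Tnfrsf9. The lymph node homing receptor Ccr7 was seen in 15 members. Of the lineage factors that mark Treg subsets, Gata3 was detected in 115 members and Tbx21 (T-bet) in 32. Il1rl1, the IL-33 receptor of tissue Tregs, was seen in 47 members and Areg, a growth factor of tissue repair, in 72. Il10 was seen in 7. Detection followed depth: members with a Ccr8 UMI had a median of 6385 UMIs and those without had 3449.

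Because depth sets detection, cell types were compared at 1500 UMIs per cell, as the share of cells expected to keep a UMI. On this scale Ikzf2 was expected in 96.1% of Tregs, 57.8% of conventional CD4 cells, 23.7% of CD8 cells and 1.22% of macrophages. Il2ra stood at 46.1%, 23.1%, 5.30% and 0.504% in the same order. Ctla4 was expected in 78.9% of Tregs and 53.9% of conventional CD4 cells against 0.282% of macrophages. Tnfrsf9 separated these 2 CD4 classes more widely, at 71.8% against 37.5%, while Icos, a costimulatory receptor of activated T cells, stood at 75.7% and 71.4%. Ccr8 was at 9.22% and 7.37%. The share for Il10 in Tregs, 1.71%, was near the 1.69% of macrophages. Gzmb, a granule protease, was expected in 31.5% of Tregs and 31.5% of CD8 cells. Ifng was expected in 0.172% of Tregs, 9.91% of conventional CD4 cells and 22.4% of CD8 cells. The conventional CD4 class required a Cd4 UMI, which Tregs did not need, and a Foxp3 count of 0, and the Foxp3 detection rate given above leaves room for Tregs within it; their number was not estimated.

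**Figure D1:**
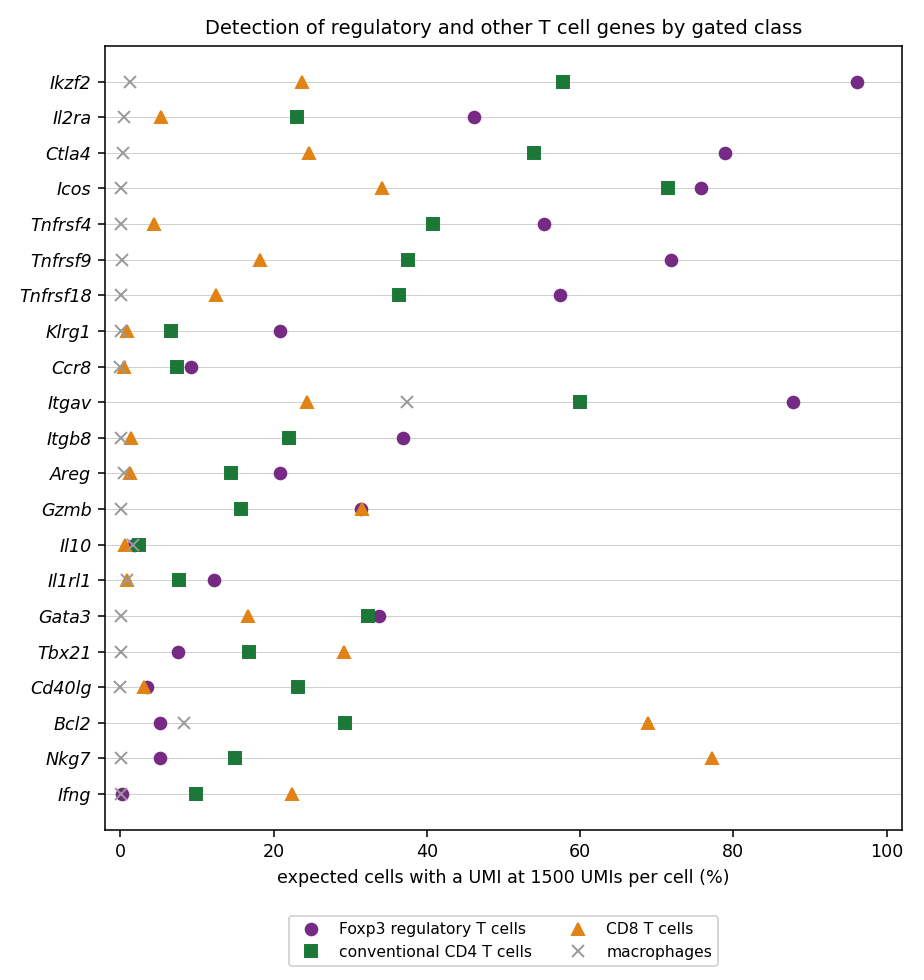
Expected share of cells (%) with at least 1 UMI of each gene at a depth of 1500 UMIs per cell, pooled over the 7 tumors, for Tregs (circles), conventional CD4 cells (squares), CD8 cells (triangles) and macrophages (crosses). Tregs stand highest for Ikzf2 (96.1%), Tnfrsf9 (71.8%) and Itgav (87.8%), and low for Bcl2 (5.14%), Nkg7 (5.14%) and Ifng (0.172%).

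The first question was how Tregs differ from the other CD4 T cells of the same tumors. UMIs were summed over the cells of a class in each tumor, and sums were compared with edgeR's quasi-likelihood test with the tumor as a block and Benjamini-Hochberg adjustment over 2952 genes. At an adjusted p under 0.05, 157 genes (5.32%) differed, 60 higher (2.03%) and 97 lower (3.29%) in Tregs. The median log2 fold change over all genes tested was 0.01. Tregs had more Ikzf2, Il2ra, Ctla4, Tnfrsf9, Tnfrsf4 and Tnfrsf18. They had less of the survival gene Bcl2 and of the helper cell ligands Cd40lg, Tnfsf8 and Tnfsf11.

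Among 24 Treg transcription factors tested, 1 was higher and 6 were lower, with a median log2 fold change of 0.01. Ikzf2 in Tregs was 4796, 4140, 4104 and 3612 CPM in irradiated tumors 1 to 4 and 4703, 5718 and 4570 CPM in control tumors 1 to 3. Conventional CD4 cells ranged from 1515 to 3652 CPM, and the Tregs were above them in 7 of 7 tumors (log2 fold change 0.80 ± 0.16 SE, edgeR adjusted p = 0.00246). The 6 factors that were lower included Bach2 (-2.19, adjusted p = 0.01585), Klf2 (-1.51, adjusted p = 0.0372) and Satb1 (-0.72, adjusted p = 0.0137) on the log2 scale, genes of quiescent or memory-type T cells. The others were Runx3, Bcl6 and Ikzf1, and Runx3 lost its call without irradiated tumor 4 (-0.76). The Klf2 call was lost without any one of irradiated tumors 2 and 3 and control tumors 1, 2 and 3 (-1.12 to -1.63), and the Bach2 call without irradiated tumor 2 or 4. Satb1 (-0.43) was not called with at least 2 Foxp3 UMIs. A stricter gate against macrophage and tumor transcripts ended the calls of Bcl6 (-0.84), Bach2 (-2.16), Klf2 (-1.65) and Runx3 (-0.95).

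In the IL-2 group, 1 of 10 genes tested was higher and 1 lower (median 0.03). Il2ra was 590, 456, 534 and 416 CPM in Tregs of irradiated tumors and 432, 653 and 705 CPM in those of control tumors, whereas conventional CD4 cells reached at most 376 CPM. The log2 fold change was 1.05 ± 0.19 (edgeR adjusted p = 0.0011). Il2rb and Il2rg, the signaling chains shared with other cytokine receptors, had log2 fold changes of 0.17 and 0.09 and did not pass the threshold. Bcl2, which protects T cells from mitochondrial apoptosis, averaged 35.9 ± 20.7 CPM (SD, n = 7) in Tregs and 457 ± 327 CPM in conventional CD4 cells, and was lower in 7 of 7 tumors (-3.54 ± 0.32, edgeR adjusted p = 1.42e-06). It was lower in Tregs than in CD8 cells too (-5.40 ± 0.20, adjusted p = 7.88e-18).

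Of 16 costimulatory and coinhibitory receptors tested, 5 were higher and 0 lower, with a median of 0.28. Tnfrsf9 ranged from 1036 to 1525 CPM over the 7 Treg sums and from 421 to 609 CPM over the conventional CD4 sums, which did not overlap (1.21 ± 0.16, edgeR adjusted p = 1.3e-05). The other 4 were Klrg1 (1.47), Tnfrsf4 (0.79), Tnfrsf18 (0.77) and Ctla4 (0.73). Ctla4 in Tregs was 1336 to 2450 CPM against 661 to 1450 CPM in conventional CD4 cells, so the ranges overlapped although the Treg value was higher in 7 of 7 tumors (edgeR adjusted p = 0.003055). Icos had a log2 fold change of 0.30 and did not pass (edgeR adjusted p = 0.302). When Tregs needed at least 2 Foxp3 UMIs, which left 4 tumors with enough cells, Ikzf2 (0.53), Il2ra (0.58), Ctla4 (0.75), Klrg1 (1.14), Tnfrsf4 (0.59), Tnfrsf18 (0.72) and Itgav (0.63) kept their sign and lost their calls. The Klrg1 call was also lost with a stricter gate against macrophage and tumor transcripts (1.10).

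None of 16 suppressive effector genes passed the threshold in this contrast (median 0.22). Itgb8, which with Itgav forms the integrin that releases active TGF-β, was 318 to 541 CPM in Tregs and 164 to 406 CPM in conventional CD4 cells (0.60 ± 0.19, edgeR adjusted p = 0.061). Its partner Itgav belonged to the trafficking group, in which 2 of 15 genes were higher and 2 lower (median -0.15). Itgav averaged 2665 ± 693 CPM in Tregs and 1410 ± 437 CPM in conventional CD4 cells, higher in 7 of 7 tumors (0.87 ± 0.18, edgeR adjusted p = 0.00311). Cd44, the hyaluronan receptor of activated T cells, was also higher (0.68, edgeR adjusted p = 0.0114). The integrin chain Itgb1 (-1.57) and the chemokine receptor Cxcr6 (-1.15) were lower. Leaving out irradiated tumor 3 or control tumor 2 ended the Cd44 call, which was also lost with at least 2 Foxp3 UMIs (0.81), after thinning (0.69) and with the stricter gate (0.53). Leaving out irradiated tumor 2 or 3 or control tumor 2 or 3 ended the Itgb1 call, and irradiated tumor 1 or 4 or control tumor 2 or 3 the Cxcr6 call. The stricter gate also ended the calls of Itgb1 (-1.53) and Cxcr6 (-1.19).

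Of 22 other Treg-associated genes, 6 were higher and 1 lower (median 0.25). Hopx, a homeodomain protein that Tregs need for their function after antigen encounter, averaged 621 ± 114 CPM in Tregs and 308 ± 127 CPM in conventional CD4 cells (0.99 ± 0.17, edgeR adjusted p = 0.000617). The tetraspanin Cd81 (1.10), Swap70 (0.92), the glutaredoxin Glrx (0.79), Arl5a (0.78) and the actin-capping protein Capg (0.73) were the others. Without irradiated tumor 3 the Glrx and Arl5a calls were lost, without irradiated tumor 1 that of Glrx, without irradiated tumor 4 or control tumor 2 that of Cd81, and without control tumor 1 that of Swap70. Tnfaip3 (A20), an inhibitor of NF-κB, was lower (-0.67, edgeR adjusted p = 0.00984). In the 4 tumors with enough Tregs of at least 2 Foxp3 UMIs, 3 of 21 genes of this list were called, and Tnfaip3 (-0.76), Capg (0.63), Arl5a (0.57), Cd81 (1.10) and Swap70 (1.10) were not. After thinning to 1500 UMIs, Hopx (0.90), Arl5a (0.76) and Tnfaip3 (-0.39) were not called, and with the stricter gate Glrx (0.75) was not.

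Conventional T cell cytokines and effectors were the lowest group: 4 of 5 genes tested were lower and 0 higher, with a median of -2.19. Cd40lg, the ligand by which helper cells activate B cells and antigen-presenting cells, averaged 26.7 ± 22.03 CPM in Tregs and 223 ± 133 CPM in conventional CD4 cells (-2.67 ± 0.34, edgeR adjusted p = 1.3e-05). Tnfsf8 (CD30 ligand) averaged 34.5 ± 34.0 CPM and 353 ± 179 CPM (-3.40 ± 0.36, edgeR adjusted p = 1.3e-05). Tnfsf11 (RANKL) and Nkg7, a protein of cytotoxic granules, had log2 fold changes of -1.59 and -2.19. Nkg7 (-2.40) and Tnfsf11 (-1.15) lost their calls in the 4 tumors with enough Tregs of at least 2 Foxp3 UMIs, where 1 of 4 genes of the list tested was called, and Nkg7 also lost its call with no tumor block (-2.05). Among 20 genes of proximal T cell receptor signaling, 3 were lower and 0 higher (median -0.33). These were the kinase Prkcq (-1.22), the phosphatase Ptpn22 (-0.68) and the receptor chain Cd247 (-0.68), of which Cd247 lost its call without irradiated tumor 1, 3 or 4 or any control tumor (-0.50 to -0.74). Ptpn22 was not called with at least 2 Foxp3 UMIs (-0.55) or after thinning (-0.40).

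Outside the lists, the largest increases with the same sign in every tumor were Tff1 (2.07 ± 0.38), a secreted trefoil peptide, Prickle1 (1.67 ± 0.26), a planar polarity protein, and Cep85l (1.58 ± 0.20). Gpr55, Pcyt1a, Gm2a, Bclaf3, Psen2, Ass1 and Agpat4 followed, with log2 fold changes from 1.17 to 1.38. The largest decreases beside Bcl2, Tnfsf8, Cd40lg and Nkg7 were the phosphodiesterase Pde3b (16.7 ± 17.2 against 221 ± 111 CPM, -3.48 ± 0.39), Gm2682 (-2.42), the heat shock cochaperone Dnajb1 (-1.97) and Themis (262 ± 100 against 847 ± 298 CPM, -1.79 ± 0.22), which sets T cell receptor signals during thymic selection. Tnfsf11, Gtf2i and Rnf19a were also in this set, with log2 fold changes from -1.59 to -1.51. Gm2a (1.08) and Gm2682 (-2.61) lost their calls with the stricter gate, Agpat4 without irradiated tumor 3, and Gm2682 also without control tumor 3. With at least 2 Foxp3 UMIs, Agpat4 (1.01) and Gm2682 (-2.31) were not called.

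Against CD8 T cells, the difference was broader. Of 3444 genes 977 (28.4%) passed the same test, 498 higher (14.5%) and 479 lower (13.9%) in Tregs, with an all-gene median of -0.01. Both contrasts use the same Treg sums, so they are not independent of each other, and only values for the members are set side by side. Il2ra averaged 541 ± 113 CPM in Tregs and 40.9 ± 19.8 CPM in CD8 cells (3.50 ± 0.24, edgeR adjusted p = 7.36e-12). Ctla4 averaged 1891 ± 419 and 255 ± 130 CPM (2.82 ± 0.18, edgeR adjusted p = 6.1e-10). Of 17 costimulatory and coinhibitory receptors 10 were higher and 3, Pdcd1 (PD-1), Cd96 and Cd226, were lower.

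The suppressive effector group held 7 higher and 0 lower genes of 15 against CD8 cells, with a median of 0.80. Itgb8 averaged 411 ± 99.1 CPM in Tregs and 21.3 ± 43.2 CPM in CD8 cells (4.21 ± 0.82, edgeR adjusted p = 0.00803). The IL-1 decoy receptor Il1r2 (3.50), Areg (2.68), Dusp4, Nrp1, Cd274 (PD-L1) and Il18r1 were the others. Areg passed narrowly (edgeR adjusted p = 0.045), and its call was lost without irradiated tumor 1, 2 or 3 or any control tumor. The Il1r2 call was lost without irradiated tumor 2 or 3 or control tumor 1 or 2 (3.22 to 3.39). Itgb8 (3.75) and Tnfrsf9 (1.93) lost their calls in the 4 tumors with enough Tregs of at least 2 Foxp3 UMIs.

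Transcription factors split by lineage. Of 26 tested, 9 were higher in Tregs than in CD8 cells, among them Ikzf2 (3.36), Maf (2.57), Rora (2.48), Runx1 (2.04) and Gata3 (1.62). The 7 that were lower included Tcf7 (-3.31), which sustains memory-type T cells, and Runx3 (-3.01) and Tbx21 (-2.12), which drive the cytotoxic program. Nkg7 averaged 44.6 ± 40.8 CPM in Tregs and 1278 ± 264 CPM in CD8 cells (-4.74 ± 0.46, edgeR adjusted p = 9.1e-05). Several genes were close to absent in a class, and for these the counts are given in place of fitted values. Laptm4b had 109 UMIs in Tregs and 0 in CD8 cells, at least 55.2-fold higher in Tregs when 3 counts over the whole class are taken as the floor. Klrk1 (NKG2D), an activating receptor, had 275 UMIs in CD8 cells and 0 in Tregs, at least 60.4-fold lower in Tregs. Ifng had 3 UMIs in Tregs, all in 1 cell, and 322 UMIs in 118 CD8 cells, a 70.7-fold difference. Its 95% exact counting interval of 24.0 to 345 treats UMIs as independent and is too narrow where they share a cell. Fasl had 1 UMI in Tregs and 282 in CD8 cells. Prickle1 had 202 UMIs in Tregs and 3 in CD8 cells.

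**Figure D2:**
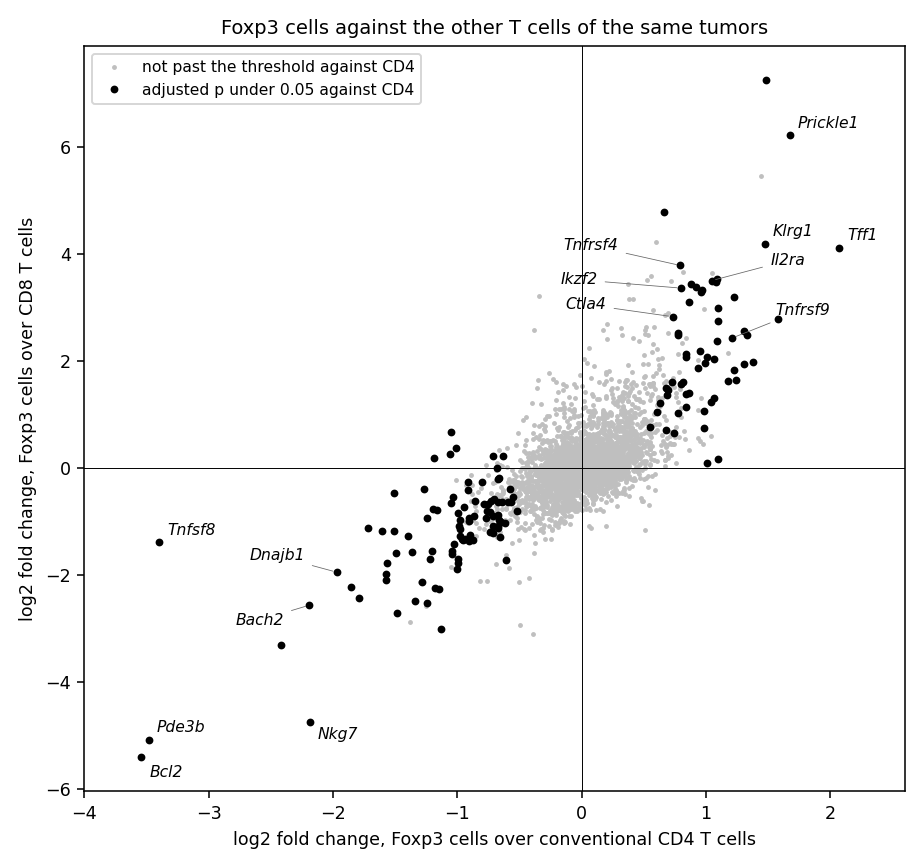
Each dot is a gene; the horizontal axis is its log2 fold change in Tregs over conventional CD4 cells and the vertical axis that over CD8 cells, with genes past the threshold against CD4 cells in black. Both axes share the Treg sums. Ikzf2 lies at 0.80 and 3.36, Tnfrsf9 at 1.21 and 2.43, and Bcl2 at -3.54 and -5.40.

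The second question was whether RT changed the number of Tregs. Tregs made up 0.270%, 1.43%, 1.05% and 1.33% of all cells in irradiated tumors 1 to 4 and 0.593%, 0.406% and 0.243% in control tumors 1 to 3. Irradiated tumors 2 to 4 were above every control tumor, and irradiated tumor 1 was below control tumors 1 and 2. Means were 1.02% ± 0.525 (SD, n = 4) and 0.414% ± 0.175 (n = 3), a difference that did not pass a two-sided exact permutation test (p = 0.143, adjusted p = 0.571 over 4 shares; smallest p possible 0.0286, or 0.114 once adjusted for a single share among 4). The difference was -0.0548 percentage points in the first technical set and 0.677 in the second, and irradiated tumors 2 to 4 are all in the second.

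As a share of T cells, Tregs were 7.46%, 31.1%, 18.4% and 18.8% in irradiated and 24.4%, 12.1% and 9.76% in control tumors. The groups overlapped over most of their range, with means of 18.9% ± 9.68 and 15.4% ± 7.86 (exact permutation p = 0.629, adjusted p = 0.8). With every cell thinned to 1500 UMIs before gating, the means were 9.72% ± 3.06 and 9.59% ± 2.42. Within the technical sets the irradiated mean differed from the control mean by -3.48 and -1.63 percentage points, and irradiated tumor 2 was above control tumor 1 in the second. The second set, which is deeper, had a mean of 23.2% over its 4 tumors and the first 9.78% over its 3.

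Among CD4 lineage cells, Tregs were 25%, 70.2%, 42.7% and 50% in irradiated and 50%, 34.1% and 35.6% in control tumors (47.0% ± 18.7 and 39.9% ± 8.77, exact permutation p = 0.657, adjusted p = 0.8). The log2 ratio of Tregs to CD8 cells was -1.99, 1.02, -0.58 and -0.77 in irradiated and 0.50, 0.00 and -1.72 in control tumors. Irradiated tumors held both the lowest and the highest ratio (means -0.58 ± 1.24 and -0.41 ± 1.17, exact permutation p = 0.8, adjusted p = 0.8). The direction of this ratio changed with the definition and with the tumors included.

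**Figure D3:**
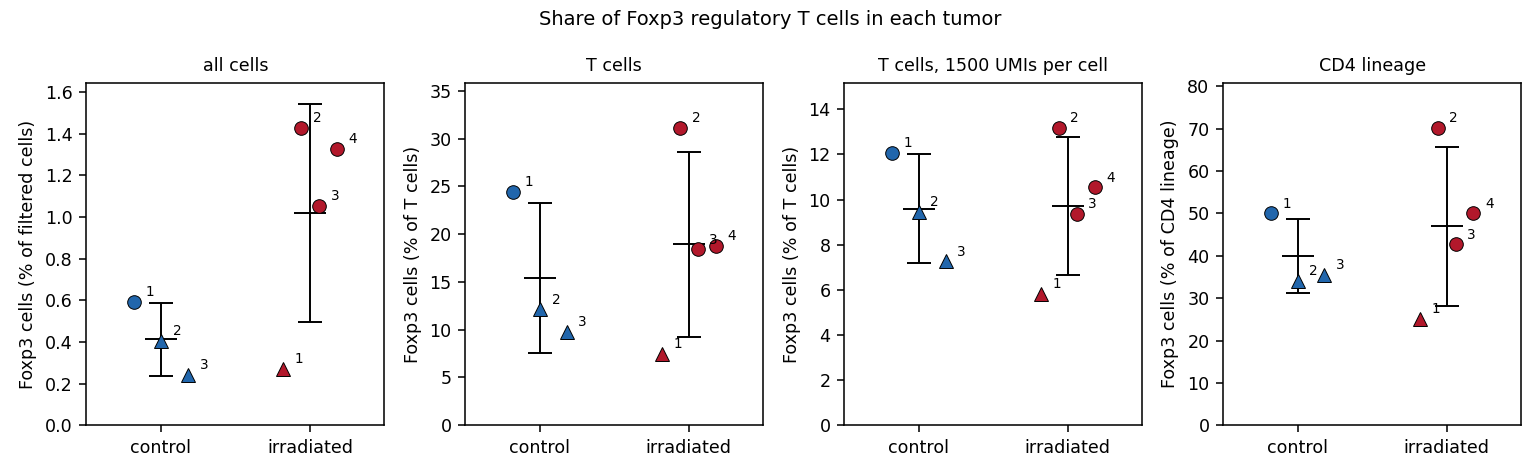
Tregs as a share (%) of all filtered cells, of T cells, of T cells after thinning to 1500 UMIs, and of CD4 lineage cells, 1 point per tumor with its replicate number; bars are mean ± SD, triangles the first technical set and circles the second. Irradiated tumors 2 to 4 are above the controls for all cells (1.05% to 1.43%), and the groups overlap in the other panels.

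Treg states were compared after thinning to 1500 UMIs. Ccr8 was expected in 14.7%, 10.5%, 12.9% and 7.15% of Tregs in irradiated and 9.09%, 5.59% and 4.63% in control tumors. Irradiated tumor 4 was below control tumor 1 and the other 3 irradiated tumors were above all controls (11.3% ± 3.25 and 6.44% ± 2.34, exact permutation p = 0.114, adjusted p = 0.457 over 4 states). Tnfrsf9 stood at 72.8% ± 2.70 and 71.5% ± 5.93 (p = 0.686, adjusted p = 0.8, exact permutation). Cells with Mki67 or Top2a made up 16.4% ± 6.43 and 17.3% ± 1.23 (p = 0.8, adjusted p = 0.8, exact permutation). With 7 tumors and 4 states, a single state could not reach an adjusted p below 0.114 whatever its difference, so these tests could not have called 1 state alone.

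The third question was which Treg genes differed with RT. None of 3722 genes tested passed the edgeR quasi-likelihood test in Tregs (0%, smallest adjusted p 0.110), and DESeq2 called 3. At an unadjusted p under 0.05 there were 96 genes higher (2.58%) and 145 lower (3.9%). Summed UMIs per tumor ran from 40656 to 243245, and 16 to 39 Tregs stood behind each value. The genes below are described by their values, and none is called changed. For orientation, 146 genes (3.92%) were higher in every irradiated than in every control tumor and 113 (3.04%) were lower.

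Interferon-stimulated genes stood mostly higher in irradiated tumors. Of 28 type I interferon response genes tested 27 had a positive log2 fold change, with a median of 0.61, against 50.5% of all genes and an all-gene median of 0.00. Of 16 type II interferon response genes 15 were positive, with a median of 0.62. Called genes numbered 0 in both lists. The groups did not overlap for Parp14, Slfn1 and Slfn5 in the type I list (3 of 28, with 0 lower) and for B2m, Irf1, Nlrc5, Tapbp and Igtp in the type II list (5 of 16, with 0 lower). Over all genes tested, 3.92% were higher and 3.04% lower without overlap.

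By level, Ifi27l2a and Samhd1 were among the 3 highest genes of the type I list. Ifi27l2a, a small mitochondrial protein induced by type I interferon, was 1131, 5172, 3393 and 3781 CPM in irradiated and 2113, 1185 and 1864 CPM in control tumors. It was higher in irradiated tumors 2 to 4 than in any control, while irradiated tumor 1 was the lowest of all (0.97 ± 0.44, edgeR adjusted p = 0.776). Without irradiated tumor 1 it was 1.23 and passed the threshold (edgeR adjusted p = 0.0271), as it did after thinning to 1500 UMIs (adjusted p = 0.0323). Samhd1, a nucleotide hydrolase that restricts viruses, had a log2 fold change of 0.29 (edgeR adjusted p = 0.949).

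In the type II list, B2m, the light chain of MHC class I, was 1746, 2269, 2218 and 2144 CPM in irradiated and 1539, 1330 and 1341 CPM in control tumors. All irradiated tumors were above all controls (0.54 ± 0.20, edgeR adjusted p = 0.559). The heavy chains H2-K1 and H2-D1 had log2 fold changes of 0.01 and 0.21, and the H2-K1 value changed sign under other settings. Irf1, the transcription factor that carries the interferon-γ response to its targets, was 123, 94.6, 134 and 108 CPM in irradiated and 81.3, 48.4 and 68.2 CPM in control tumors (0.66 ± 0.40, edgeR adjusted p = 0.844). Nlrc5, which activates MHC class I genes, was 197, 173, 203 and 277 CPM against 157, 96.7 and 114 CPM (0.69 ± 0.32, edgeR adjusted p = 0.748).

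Summed over the lists, 39 type I genes made up 5731, 10241, 8481 and 10520 CPM of Treg UMIs in irradiated and 7166, 3591 and 4615 CPM in control tumors, which overlapped. The 28 type II genes made up 8830, 9336, 9983 and 9762 CPM in irradiated and 7963, 6552 and 7753 CPM in control tumors, which did not overlap. Irradiated means were above control means in both technical sets, for the type I list by 5731 against 4103 CPM in the first and 9747 against 7166 CPM in the second. The median for the type I list was 1.25 without control tumor 1 and 0.37 without control tumor 2, and it was 0.40 with the technical set as a term in the fit. Restriction to Tregs with at least 2 Foxp3 UMIs left control tumor 1 as the only control. The medians were then 0.21 (22 of 34 genes positive) and 0.33 (17 of 19). After thinning to 1500 UMIs, few genes could be tested, and the medians were 0.11 for type I (2 of 4 positive) and -0.21 for type II (1 of 3 positive).

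**Figure D4:**
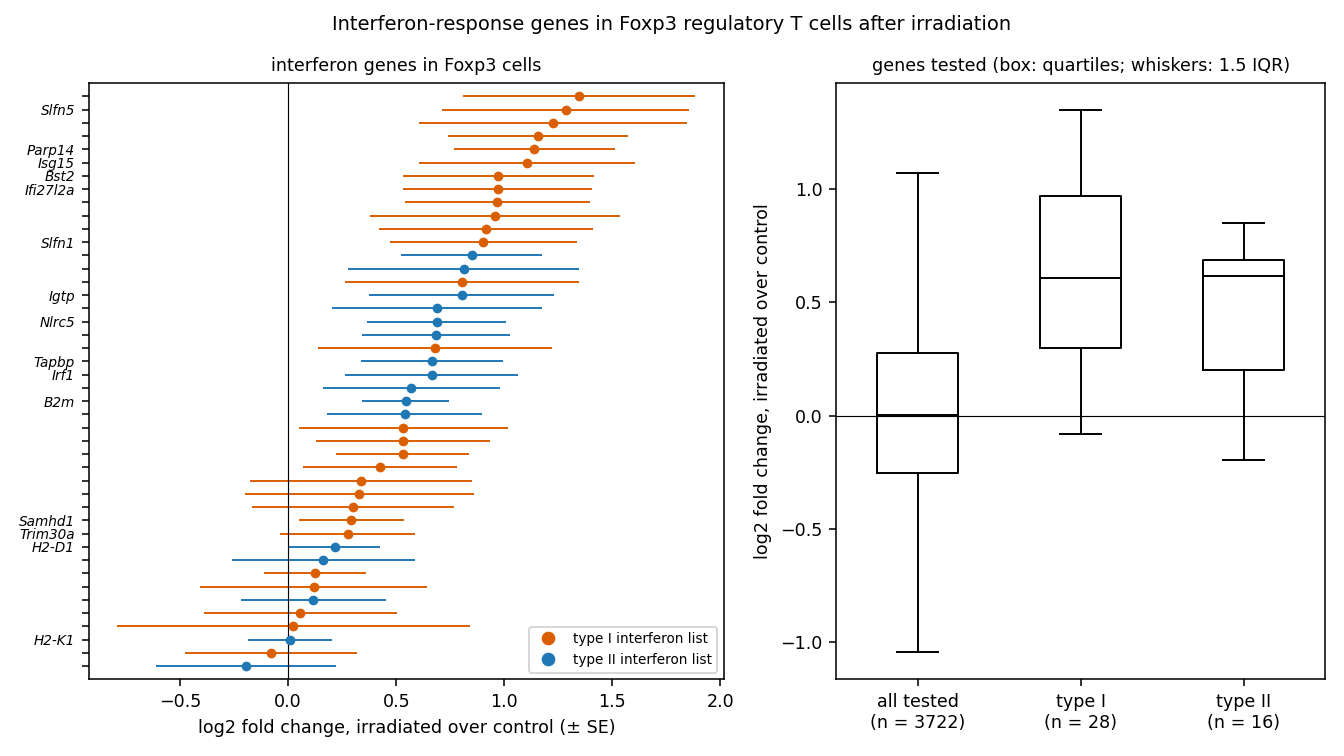
Left, log2 fold change (irradiated over control, ± SE) in Tregs of each type I (orange) and type II (blue) interferon response gene tested, with the genes described in the text labelled; right, the distribution over all 3722 genes tested and over the 28 and 16 list genes (box, quartiles; whiskers, up to 1.5 interquartile ranges). List medians are 0.61 and 0.62 against 0.00 for all genes, and no single gene passed the threshold.

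The same sums in the other T cells were set beside these. Type I genes made up 4131, 8145, 7763 and 10881 CPM of conventional CD4 cells in irradiated and 4032, 4205 and 6134 CPM in control tumors. In CD8 cells they made up 4395, 6800, 6661 and 6035 CPM and 4067, 5520 and 6350 CPM. Irradiated tumor 1 was the lowest irradiated tumor in all 3 classes. The test of whether the RT difference itself differed between Tregs and conventional CD4 cells called 0 genes of either list (13 of 31 type I and 12 of 19 type II genes positive, medians -0.10 and 0.14, all-gene median 0.02).

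Interferons act through transcription factors that bind an interferon-stimulated response element upstream of their targets, and the promoters of these genes were read for its core (GAAA, any 2 bases, GAAA) on both strands. In the mouse RefSeq promoter set (build GRCm38.p6, 250 bases before to 50 after each start), 1079 of 27025 genes (3.99%) held it. It was found in 12 of 23 matched type I genes that were tested (52.2%), in 4 of 12 type II genes (33.3%) and in 133 of 2973 of all genes tested for RT (4.47%). These lists gather known interferon targets, so the shares describe the lists. The 4 tested interferon genes that hold the core and have the highest mean level in Tregs are shown as examples of the sequence these lists share. Each window runs from 160 to 21 bases before the start, on the gene's strand, with the core in capitals:
B2m, chr2:122147527-122147666, plus strand: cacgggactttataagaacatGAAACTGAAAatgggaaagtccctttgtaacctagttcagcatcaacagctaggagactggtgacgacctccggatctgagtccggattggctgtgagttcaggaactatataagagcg
Bst2, chr8:71537493-71537632, minus strand: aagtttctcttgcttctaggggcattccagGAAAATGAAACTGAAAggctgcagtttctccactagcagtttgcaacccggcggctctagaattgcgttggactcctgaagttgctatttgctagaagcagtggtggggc
Trim30a, chr7:104465214-104465353, minus strand: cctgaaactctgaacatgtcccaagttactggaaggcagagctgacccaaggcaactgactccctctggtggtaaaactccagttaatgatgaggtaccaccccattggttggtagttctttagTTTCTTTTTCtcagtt
Isg15, chr4:156200839-156200978, minus strand: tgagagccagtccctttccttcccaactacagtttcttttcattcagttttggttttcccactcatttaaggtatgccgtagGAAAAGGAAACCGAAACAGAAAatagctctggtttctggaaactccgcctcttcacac

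B2m held 1 core, 139 bases before its start, and Trim30a held 1 as its reverse complement, 36 bases before the start. Bst2 held 2 overlapping cores and Isg15 held 3. The log2 fold changes with RT in Tregs were 0.54 for B2m, 0.97 for Bst2 (tetherin, which holds virions at the membrane), 0.28 for the ubiquitin ligase Trim30a and 1.10 for Isg15 (a ubiquitin-like modifier). None passed the threshold, and a match in the sequence does not show binding.

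Single genes with the smallest p were examined next. Ly6a (Sca-1), a membrane protein of activated and interferon-exposed T cells, was 935, 1089, 1299 and 1343 CPM in irradiated and 701, 520 and 455 CPM in control tumors. The groups did not overlap (1166 ± 190 and 558 ± 128 CPM, 1.00 ± 0.23, edgeR adjusted p = 0.12, 0.0145 with DESeq2). Nkg7 was 49.2, 86.3, 69.5 and 95.3 CPM against 0, 12.1 and 0 CPM. These values rested on 58 UMIs in irradiated and 1 UMI in control tumors, a 26.7-fold difference with a 95% exact counting interval of 4.61 to 1070 that covers counting error only (edgeR adjusted p = 0.11). The Nkg7 value passed the threshold without irradiated tumor 1 (4.43). It also passed without control tumor 2, which held the only control UMI, so that its fitted value is then set against a count of 0 and is not given. Nkg7 UMIs were in 20 members, 19 of which lay in irradiated tumors, and its level in CD8 cells is given above. Tbx21 was 98.4, 32.9, 64.1 and 178 CPM against 20.3, 0 and 0 CPM, from 65 and 4 UMIs (edgeR adjusted p = 0.344). Ern1 (IRE1α), the endoplasmic reticulum stress sensor, was 221, 111, 246 and 230 CPM against 60.9, 36.3 and 136 CPM (1.52 ± 0.42, edgeR adjusted p = 0.293), and irradiated tumor 2 was below control tumor 3. Slco3a1 (1.24) and Laptm4a (1.76) completed the 5 smallest p on the higher side together with Nkg7, Ly6a and Ern1. Nkg7, Tbx21 and Laptm4a passed the expression filter only through irradiated tumors, where they were high. Their fold values, intervals and p-values are thus description and no support for a difference.

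On the lower side, Lrig1, an inhibitor of growth factor receptors, was 73.8, 53.4, 80.2 and 77.96 CPM in irradiated and 223, 230 and 159 CPM in control tumors (-1.61 ± 0.34, edgeR adjusted p = 0.11). Nfkb1, the p50 subunit of NF-κB, was 861, 888, 818 and 546 CPM against 1183, 1366 and 2342 CPM (-1.08 ± 0.24, edgeR adjusted p = 0.12, 0.0145 with DESeq2). Neither gene's groups overlapped. Nfkb1, Ly6a, Slco3a1 and mt-Nd1 passed the threshold without control tumor 1, and Gm47283 without control tumor 2. The mitochondrial gene mt-Nd1 (-1.03), Gm47283 (-1.36) and the glycosyltransferase Mgat5 (-1.14) completed the 5.

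**Figure D5:**
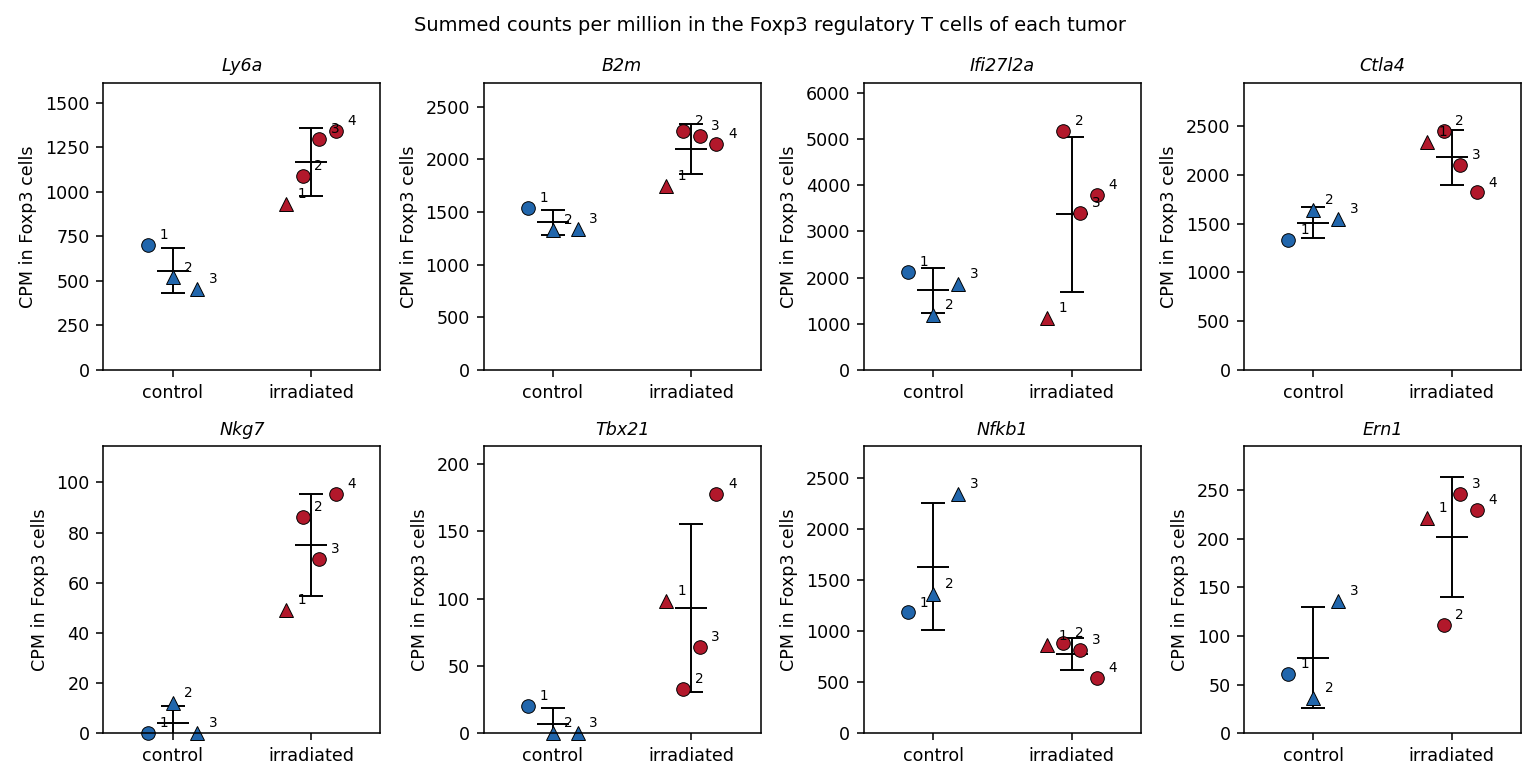
CPM of 8 genes summed over the Tregs of each tumor, control in blue and irradiated in red, with replicate numbers, mean ± SD bars, and triangles and circles for the first and second technical set. Ly6a, B2m, Ctla4, Nkg7, Tbx21 and Nfkb1 have groups that do not overlap; Ifi27l2a and Ern1 overlap, and none of the 8 passed the threshold.

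The Treg identity and receptor genes showed smaller differences. For scale, 3.92% of all genes tested were higher and 3.04% lower in irradiated tumors without overlap of the groups. Genes named below for a lack of overlap are description and no result about their list. Ctla4 was 2337, 2450, 2106 and 1819 CPM in irradiated and 1336, 1644 and 1546 CPM in control tumors, with no overlap (0.49 ± 0.20, edgeR adjusted p = 0.671). Of 17 costimulatory and coinhibitory genes tested 8 were positive (median -0.01), and Ctla4 and Tnfrsf18 were the 2 with groups that did not overlap. Icos and Tnfrsf9 had log2 fold changes of 0.19 and 0.13. Of 26 transcription factors 11 were positive (median -0.24), with Prdm1 (Blimp-1) and Tbx21 higher in every irradiated tumor and Rora, Nfkb1 and Nfatc1 lower. Ikzf2, Rora and Tox, the 3 with the highest levels, had log2 fold changes of -0.31, -0.60 and -0.48. In the trafficking list 8 of 17 were positive (median -0.03). Ccr8 was higher in every irradiated tumor, at 64.96 to 197 CPM against 45.5 to 55.9 CPM (edgeR adjusted p = 0.899), while Itgav, Cxcr4, Cxcr6 and Gpr183 were lower. Suppressive effectors were positive for 7 of 17 genes (median -0.13), and only Il18r1 did not overlap, being lower. The IL-2 group was positive for 3 of 10 (median -0.09). Of the 23 other Treg-associated genes 12 were positive (median 0.07), and Ly6a, Izumo1r (folate receptor 4), Capg, Cd6 and Glrx were higher in every irradiated tumor.

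Lastly, a difference between Tregs and conventional CD4 cells in the response to RT was tested for 3877 genes with an interaction term. Ern1 was the only gene past the threshold (1 of 3877, 0.0258%). Its Treg values are given above, and in conventional CD4 cells it was 160, 12.9, 92.8 and 132 CPM in irradiated and 376, 195 and 236 CPM in control tumors. Irradiated tumors were thus mostly higher in Tregs and all lower in conventional CD4 cells (interaction 3.23 ± 0.53, edgeR adjusted p = 0.00358). Without control tumor 1 it was 2.67 and did not pass (edgeR adjusted p = 0.277), and with a stricter gate against macrophage and tumor transcripts it was 2.91 (adjusted p = 0.603). Tbx21 had an interaction of 2.92 and did not pass (edgeR adjusted p = 0.783).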

How the data were processed

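Per the file headers, UMI counts per gene and cell came from Cell Ranger 8.0.0; the authors deposited filtered matrices of 33696 genes, and the submitters' processing notes name mm10 and Seurat 4.4. Whether intronic reads were counted is not given in the sources used here. Members, gene lists and tests were chosen with earlier results of these data known. Cells passed at 500 genes and 10% mitochondrial UMIs; no doublet caller was run beyond the gate. UMIs were summed per tumor and class (40656 to 243245 per Treg sum) and tested with edgeR 4.0.16 (filterByExpr, TMM factors, robust quasi-likelihood, adjusted p under 0.05) after a check on simulated data; DESeq2 1.42.0 was an alternative. Depth limits precision, and intervals and floors cover counting error only. Shares were tested over 35 splits of the 7 tumors by exact permutation, adjusted over 4. The labels call the tumors biological replicates and give no further origin, so p-values measure the spread between these tumors. CPM were computed from the UMI sums of a class.

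Named genes were list members. Added were the 12 largest changes per direction past the threshold with at least 100 CPM in the higher class and 1 sign in every tumor. For RT, the 5 smallest p per direction were added. For some lists, RT values or only fold changes were given for genes among the 3 with the highest mean CPM. Genes whose groups did not overlap were named after their values were seen, and some, Irf1 and Nlrc5 among them, got values per tumor. Thinned detection is the hypergeometric expectation at 1500 UMIs. Alternatives were other Foxp3 and Cd4 thresholds, a stricter gate, thinning, other filters and scalings, the technical set, the replicate number, and leaving out each tumor. Some items, among them 1 of the 4 Treg states tested, are not reported here.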

Additional observations from a re-analysis of the deposited data

Results flagged for a closer look

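In the Tregs of the 4 irradiated tumors, single tumors stood far from the other 3 for 4 genes among 31 shares and genes examined. Chance gives such a gap in about 1 of 20 groups. Gm47283 was 164 CPM in irradiated tumor 2, and Mgat5 was 320 CPM in irradiated tumor 1. Itgav, the integrin chain that pairs with Itgb8, was 1286 CPM in irradiated tumor 4 against 2484 to 2677 CPM in the other irradiated tumors. Tnfrsf9 was 1525 CPM in irradiated tumor 1 against 1151 to 1197 CPM in the others.

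The RT difference for Ern1 differed between Tregs and conventional CD4 cells by 3.231 on the log2 scale (edgeR adjusted p = 0.00358), with higher values in 3 of 4 irradiated tumors than in any control among Tregs and lower values in 4 of 4 among conventional CD4 cells. The call rests on control tumor 1 (2.67 without it).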

How the results depend on the processing

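With 7 tumors no single share could pass the adjusted threshold, so only the size and sign of the differences (irradiated minus control) are compared. The share of T cells ran from -0.557 (without irradiated tumor 2) to 7.99 percentage points when 1 tumor was left out and was -2.50 with the technical set as a term, where the main value was 3.51. The share of CD4 lineage cells ran from -0.678 to 14.4 and was -2.36 with that term, where it was 7.07. The log2 Treg to CD8 ratio, -0.17, ran from -0.83 to 0.30 and turned to 0.24 with at least 2 Foxp3 UMIs, 0.35 with a Cd4 UMI required, and 0.30, 0.28 and 0.03 without irradiated tumor 1, control tumor 1 and control tumor 2. The share of all cells ran from 0.469 to 0.856. Among states, Ccr8 ran from 3.77 to 6.27 and Tnfrsf9 from -0.997 (without control tumor 1) to 4.65. Cycling cells ran from -3.22 to 1.85 (without irradiated tumor 1), with 5.67 unthinned. At 2500 UMIs, where control tumor 1 was the only control, the difference was 2.95.

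Genes called for RT numbered 0, and 3 with DESeq2, 23 with every gene, 2 after thinning and 1 with the technical set. With 1 tumor left out they numbered 0 to 12 (4, 12 and 5 without irradiated tumor 1, control tumor 1 and control tumor 2). Against conventional CD4 cells the 157 calls became 53 with at least 2 Foxp3 UMIs, 11 after thinning (390 genes tested), 90 with the stricter gate and 88 to 158 when 1 tumor was left out, with 88 without irradiated tumor 3. Against CD8 cells the 977 became 617, 132 after thinning (290 tested) and 816 to 971. The interaction called 3 with every gene, 17 with at least 2 Foxp3 UMIs, 0 after thinning or with the stricter gate, and 0 to 1 when 1 tumor was left out. Fitted values never changed sign in the class contrasts for the genes followed across settings, 50 against conventional CD4 cells and 39 against CD8 cells. Il2rb, Il2rg, Icos and Itgb8 against conventional CD4 cells were among the named genes not followed. With RT, H2-K1 became -0.26 after thinning, -0.12 with the stricter gate, and -0.035, -0.002, -0.052 and -0.008 without irradiated tumors 1 and 3 and control tumors 1 and 2, with a highest value of 0.111. After thinning H2-D1 was -0.21, Samhd1 -0.31 and Icos -0.14. The causes were not tested.

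Deviations from the group means had r of -0.081, -0.009 and -0.043 between same-numbered irradiated and control tumors. Differently numbered pairs ran from -0.105 to 0.089. With few UMIs per gene, counting error also pulls r toward 0, so this check cannot tell whether the numbers pair the tumors. With the replicate number as a block, 0 of 2758 genes were called, and the share of T cells differed by 3.57 points.

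With 16 to 39 Tregs per tumor, genes under about 100 CPM rest on few UMIs, and a missed call is no evidence of equality.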

Other observations

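Outside Treg function, genes of the dissociation stress response also differed between Tregs and conventional CD4 cells. Of 19 genes of the dissociation stress response tested, 6 were lower in Tregs and 0 higher (median log2 fold change -0.44, all-gene median 0.01; 3.29% of all genes were lower). Dnajb1 averaged 70.4 ± 34.6 CPM in Tregs and 325 ± 203 CPM in conventional CD4 cells (edgeR adjusted p = 1.3e-05). Btg2 (-1.50), an antiproliferative gene, Hspa1b (-1.25), Ier2 (-0.94), Klf6 and Hsp90aa1 (-0.55) were the others. The list summed to 10872, 5965, 6584 and 8406 CPM in Tregs of irradiated and 6836, 8692 and 7548 CPM in those of control tumors. Conventional CD4 cells held 11660, 8262, 7125 and 9021.5 CPM and 9536, 12833 and 12267 CPM. The interaction with RT was positive for 17 of 20 genes tested (median 0.52, all-gene median 0.02), with 0 called.

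Cd74, the MHC class II invariant chain, averaged 249 ± 67.0 CPM in Tregs and 116 ± 30.02 CPM in conventional CD4 cells, higher in 7 of 7 tumors (1.07 ± 0.22, edgeR adjusted p = 0.003055). In the 4 tumors with enough Tregs of at least 2 Foxp3 UMIs it was 0.84 and was not called. Macrophages and dendritic cells carry this transcript. The 10 dendritic cell markers, Cd74 among them, summed to 172 to 387 CPM in Tregs and 117 to 167 CPM in conventional CD4 cells, and 5 of the 10 had no UMI in any Treg. Their part in the Cd74 difference was not tested. Of 10 cell cycle genes tested, 0 were called against conventional CD4 cells, 9 with a positive log2 fold change (median 0.17). With RT, 3 of 14 cell cycle genes were positive in Tregs, with a median of -0.21 and 0 genes called.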
